A study of Mus musculus with 10 samples.

Results

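The genes described here are the colony-stimulating factor genes Csf1, Csf2 and Csf3 and the gene of interleukin 34, Il34, 4 of 56748 gene identifiers in the count tables. They were picked by name as the ligands of the colony-stimulating factor receptors, a rule that uses no measured value, though earlier results of these data were known when it was set. RNA-seq libraries came from beta cells, the insulin-producing cells of the pancreas, that were sorted from islets of male NOD mice of 6 to 8 weeks, an inbred strain prone to autoimmune diabetes. The islets had stayed untreated (n = 5 libraries, untreated 1 to 5) or had been exposed for 48 hours to lipopolysaccharide (LPS) of the bacterial cell wall at 50 ng/ml (n = 5 libraries, LPS 6 to 10). Sorting followed the exposure, so the cells met LPS inside whole islets that also hold other cell types. The libraries are described as independent, but no animal is named for any of them, so p-values measure the spread between libraries, which may be partly technical.

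Colony-stimulating factors are secreted proteins that keep myeloid cells alive and direct their growth. CSF1 (M-CSF) and IL-34 have unrelated sequences but share the receptor CSF1R, on which tissue macrophages, those of the islet included, depend. CSF2 (GM-CSF) acts on macrophages, dendritic cells and granulocytes through a specific alpha chain and a common beta chain, and CSF3 (G-CSF) drives the production and release of neutrophils through CSF3R. Epithelial, endothelial and stromal cells make several of these factors after signals of Toll-like receptors or inflammatory cytokines, through NF-kB and C/EBP transcription factors, and AU-rich elements in the 3′ untranslated regions shorten the life of some of the transcripts.

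Library totals assigned to genes ran from 18465188 to 27379892 counts, and 15942 genes had enough counts for edgeR's quasi-likelihood test. Of these, 453 genes (2.84%) were called higher and 148 (0.928%) lower in LPS libraries at an adjusted p under 0.05, and 601 (3.77%) in either direction. Below, means carry ± SD over the n = 5 libraries of a group, and log2 changes (LPS against untreated) carry ± SE. Beta cell markers summed to between 100813 and 135884 CPM (counts scaled to a common library total by TMM normalisation), with 3 of 9 called lower in LPS libraries (Slc2a2, Ucn3 and Slc30a8, named after their values were seen). Transcripts of other islet hormone cells were also abundant, at 9262 to 23866 CPM for 6 markers. Endothelial markers were lower on average in LPS libraries, as given below.

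Csf1 was the one abundant ligand and rose with LPS, while Il34 was counted at most 17 times per library and did not pass the test. Csf3 went from at most 2 counts to between 5 and 26 per library, and Csf2 stayed at or near 0. The values of each follow in this order.

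Csf1 (ENSMUSG00000014599) encodes the main growth factor of macrophages. Its raw counts were 611, 598, 657, 683 and 633 in untreated 1 to 5 and 1087, 1066, 807, 819 and 1148 in LPS 6 to 10. Scaled to normalised CPM, these were 23.7, 24.2, 27.7, 29.4 and 26.0 in untreated and 53.0, 38.5, 38.3, 44.0 and 47.5 in LPS libraries. Every LPS library lay above every untreated one, a pattern that 3.84% of all tested genes showed, while 1.87% showed the reverse. Mean Csf1 was 26.2 ± 2.37 CPM without and 44.3 ± 6.24 CPM with LPS, a 1.69-fold increase (log2 change 0.76 ± 0.10, 95% interval 0.54 to 0.97, adjusted p = 0.00053 in edgeR). In size this was an ordinary change, ranking 218 of the 453 genes called higher, whose median log2 change was 0.73. In bulk RNA, more cells that express a gene and more RNA per cell cannot be told apart. The call held in all 10 fits that left out 1 library. It did not hold with the share of the abundant gene ENSMUSG00000119584 as a covariate (0.78 ± 0.17, adjusted p = 0.0509 in edgeR). This setting was added after the data were seen, and the gene is given here by its identifier only. That gene stood at 3617 to 9420 CPM in untreated and 2233 to 4228 CPM in LPS libraries, and its part in the result was not tested otherwise.

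**Figure D1:**
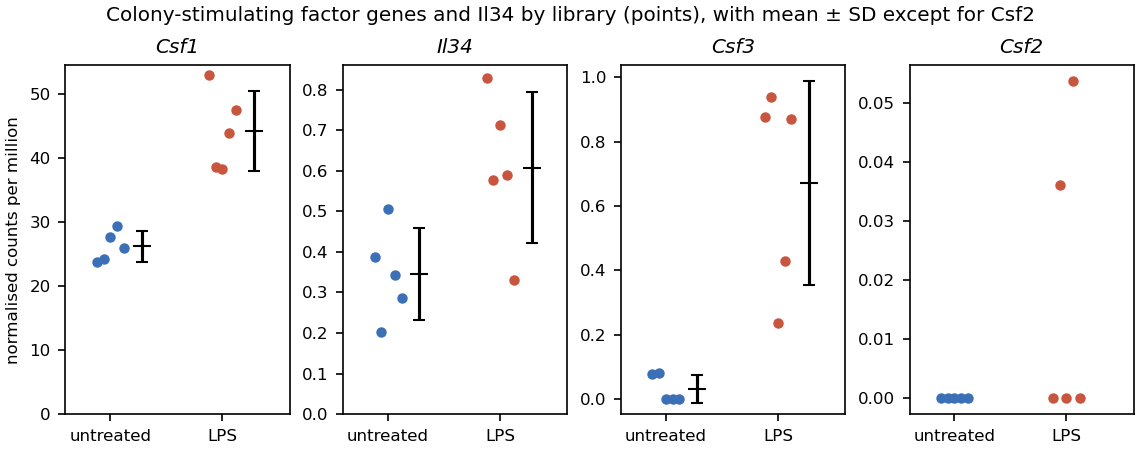
Normalised CPM (vertical axes, linear, a separate scale for each gene) of Csf1, Il34, Csf3 and Csf2 in 5 untreated and 5 LPS libraries; each point is a library, and the black line with its bar is the mean ± SD, left out for Csf2. Csf1 lies between 38.3 and 53.0 in LPS libraries and at most at 29.4 in untreated ones, Il34 overlaps between the groups, Csf3 is above 0.2 only in LPS libraries, and Csf2 is above 0 in 2 LPS libraries.

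The stretch of the genome before the Csf1 start is shown because it holds an exact match to a classical binding sequence of NF-kB. The sequence is that of RefSeq on GRCm38.p6 (the reads were counted on GRCm39), 250 bases of the minus strand at chr3:107760470-107760719, with the match in capitals.
Csf1 promoter: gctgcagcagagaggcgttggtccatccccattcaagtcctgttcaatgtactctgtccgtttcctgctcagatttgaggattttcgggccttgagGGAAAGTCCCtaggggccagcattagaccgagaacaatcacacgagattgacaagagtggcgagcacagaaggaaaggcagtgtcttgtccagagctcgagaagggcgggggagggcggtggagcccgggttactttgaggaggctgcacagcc
The capitals are the classical kappaB sequence of the immunoglobulin kappa enhancer, read on the opposite strand, and begin 154 bases before the start. Both strands were searched, and 46 of 32851 RefSeq windows of the same length (0.14%) held that exact sequence. A looser kappaB form with free middle bases, which contains the first, matched at the same place and was in 1.41% of windows. The letters TGANTCA (bound by AP-1), TTGCNNCAA (bound by C/EBP) and TATAAA (the TATA box) and the core of interferon-stimulated response elements were not in this window. They were in 6.75%, 1.74%, 12.4% and 2.98% of all windows, in that order. A match of letters is a description of the reference strain and not a measured binding site. For Csf2 the RefSeq window held none of these motifs, and 2 of the 4 members had an entry.

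Il34 (ENSMUSG00000031750) encodes the second ligand of CSF1R, known for its part in keeping microglia and Langerhans cells. It was counted 10, 5, 12, 8 and 7 times in untreated 1 to 5 and 17, 16, 15, 11 and 8 times in LPS 6 to 10. On the normalised scale this was 0.388, 0.202, 0.506, 0.344 and 0.287 CPM against 0.829, 0.578, 0.712, 0.590 and 0.331 CPM. The groups overlapped through LPS 10, which fell below 3 untreated libraries, while the other 4 LPS libraries lay above all untreated ones. The means were 0.346 ± 0.114 and 0.608 ± 0.185 CPM, with a log2 change of 0.80 ± 0.34 (95% interval 0.06 to 1.53) that did not pass edgeR's test (adjusted p = 0.28). Its fitted fold was as large as that of Csf1, with an error over 3 times as wide.

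Counts of Il34 can hold reads of the antisense gene Gm15895, which overlaps it and had 30 counts over the untreated and 38 over the LPS libraries, since the use of strand in counting is not given in the sources used here. A further antisense gene, Gm15894, had 0 and 2 counts. No annotated gene overlapped Csf1 or Csf3.

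Because both ligands bind CSF1R, their balance was compared within each library, where library scaling has no part. There were 53.8 to 144 counts of Csf1 for each count of Il34, and Il34 made up 0.829 to 1.79% of the counts of both in untreated and 0.692 to 1.82% in LPS libraries. On the log2 scale the ratio of Csf1 to Il34 counts averaged 6.22 ± 0.42 without and 6.18 ± 0.53 with LPS. The groups overlapped, and the difference of -0.03 was within the spread (p = 0.897, exact permutation test, two-sided). Its 95% interval, from -0.72 to 0.73, does not show that both ligands changed alike, since it still allows a change in their ratio of about the size of the change in Csf1.

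Csf3 (ENSMUSG00000038067), the gene of the neutrophil growth factor G-CSF, was too low to pass the filter. It had 2, 2, 0, 0 and 0 counts in untreated 1 to 5 and 18, 26, 5, 8 and 21 in LPS 6 to 10. All 5 LPS libraries were above all untreated ones, a pattern that 3.84% of all tested genes showed, though Csf3 itself was below the filter. LPS 8 and LPS 9 were the lowest of the LPS libraries. Means were 0.0317 ± 0.0435 and 0.671 ± 0.316 CPM, a difference larger than the spread (p = 0.00794 by exact permutation, two-sided, the smallest that 5 against 5 libraries can give). Summed over the groups there were 4 and 78 counts, a ratio of 21.3 per assigned read with an exact 95% interval of 8.00 to 80.2 that covers counting error only. With no filter, edgeR gave a log2 change of 4.17 ± 0.70 (adjusted p = 0.00048), and DESeq2 gave 4.37 ± 0.89 (adjusted p = 6.54e-05). The increase is thus large in fold and small in level, less than 1 CPM in each LPS library.

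Csf2 (ENSMUSG00000018916), the gene of GM-CSF, had 0 counts in all untreated libraries and in LPS 6, 8 and 10, and 1 count each in LPS 7 and LPS 9. A count of 0 over the untreated group allows up to 3 counts, or 0.0246 CPM. The LPS group had 2 counts (0.0179 CPM when summed), and that limit for a count of 0 does not apply to it. With 0 and 2 counts no fold is given (exact permutation p = 0.444, two-sided). The exact 95% interval of the ratio, for counting error only, began at 0.205 and had no upper end. A difference was not detectable at this depth.

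Sequences at the 3′ ends are shown because the transcripts differ in the AU-rich motifs that decay factors bind. The longest coding transcript of each gene in GENCODE M21 (GRCm38) was searched for ATTTA and for TATTTAT, which contains it, with overlapping matches counted. For each gene the 30 bases of the 3′ untranslated region with the most ATTTA are given, in DNA letters with ATTTA in capitals.
Csf2: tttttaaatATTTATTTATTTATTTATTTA
Csf3: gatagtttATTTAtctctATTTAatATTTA
Csf1: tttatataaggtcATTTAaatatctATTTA
Il34: tggttcctttttctattaaatggccATTTA
Csf2 held 9 ATTTA and 9 TATTTAT in a region of 317 bases. Among 1646 coding genes with a region within 20% of that length, Csf2 included, 38.8% held any ATTTA and 0.0608% held as many. That last share is Csf2 alone, and the shares that follow also include the gene itself. In Csf3 there were 6 ATTTA in 669 bases, a number reached by 1.68% of 2260 genes of like length, and 2 of TATTTAT. Csf1 had 4 in 2111 bases, where 47.7% of 2835 genes of like length had at least 4, and Il34 had 1 in 605 bases, where 56.8% of 2105 genes had at least 1. The pair of genes with dense motifs is thus also the pair with the fewest counts in untreated cells, and the abundant Csf1 had a common number for its length, which is a description of 4 genes and no test.

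Levels of different genes were compared per length, as CPM per kilobase of annotated exons. In untreated cells Csf1 stood at 4.96 ± 0.448, Il34 at 0.176 ± 0.0580, Csf3 at 0.0225 ± 0.0308 and Csf2 at 0 CPM per kilobase, and none of these ranges touched except those of Csf3 and Csf2. With LPS the order was Csf1 at 8.38 ± 1.18, Csf3 at 0.475 ± 0.224, Il34 at 0.310 ± 0.0946 and Csf2 at 0.0224 ± 0.0317. Csf3 and Il34 did not differ beyond their spread there, with ranges of 0.168 to 0.665 and 0.169 to 0.423, although Csf3 was above Il34 in 4 of 5 LPS and in 0 of 5 untreated libraries. Csf1 was far above the other members in every library.

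Of 7 receptor and binding protein genes, 4 could be tested and 1 rose, beside 2.84% of all tested genes called higher. The median log2 change of the 4 was 0.21, against -0.01 over all tested genes. The one that rose was Csf2rb (ENSMUSG00000071713), which encodes the common beta chain of the receptors for GM-CSF, IL-3 and IL-5. It was counted 5, 3, 13, 3 and 3 times in untreated and 35, 19, 23, 33 and 27 times in LPS libraries. Of the untreated libraries only untreated 3 reached a count of 10, so Csf2rb passed the filter through the LPS libraries. Its place among the 4 tested genes thus follows from its rise, and the 1 of 4 adds no support to it. No LPS library overlapped with the untreated ones, of which untreated 3 was the highest. This pattern with LPS higher was seen in 3.84% of all tested genes. Means of 0.223 ± 0.184 and 1.27 ± 0.457 CPM gave a log2 change of 2.48 ± 0.44 (adjusted p = 0.00564 in edgeR). Without untreated 3 the log2 change was 3.10. As edgeR covariates, the endothelial marker list gave 2.04 ± 0.75 (adjusted p = 0.41) and the share of ENSMUSG00000119584 gave 1.5 ± 0.59 (adjusted p = 0.442). The call was thus absent with each, and the error was wider. Both covariates tended to be lower in LPS libraries, so these fits cannot part them from LPS well. Over all 15942 tested genes they called 115 and 165, against 601 without a covariate. Csf2rb2, a near-identical mouse copy that serves IL-3 only, had 7 counts over the untreated and 14 over the LPS libraries, and reads may have been split between both genes.

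Csf2ra (ENSMUSG00000059326), the ligand-specific alpha chain of the GM-CSF receptor, was by contrast abundant. Its counts ran from 1783 to 3411 in untreated and from 1500 to 3003 in LPS libraries, and the means of 92.4 ± 27.6 and 94.4 ± 20.8 CPM did not differ beyond the spread (log2 change 0.03 ± 0.18, 95% interval -0.36 to 0.43, adjusted p = 0.964 in edgeR). It was above Csf1 per kilobase in all 10 libraries, at 32.2 ± 9.60 in untreated and 32.9 ± 7.26 CPM per kilobase in LPS libraries. Untreated 5 and LPS 10 held the highest values of their groups, 139.9 and 124 CPM. For each Csf2rb count there was a median of 651 Csf2ra counts in untreated and 90.3 in LPS libraries, so the transcripts of the ligand-specific and the signalling chain were far from equal in both groups.

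Csf1r, the receptor of both CSF1 and IL-34 and a defining gene of macrophages, was not tested for its low counts. There were 21, 7, 8, 9 and 3 counts in untreated and 12, 8, 2, 5 and 3 in LPS libraries, which overlapped (two-sided exact permutation p = 0.437). Even these can include reads of Hmgxb3, a gene on the opposite strand that overlaps Csf1r and had 6693 counts over the untreated and 6339 over the LPS libraries. Csf3r, the receptor of G-CSF, had 0 counts in all 10 libraries.

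IL-34 also binds the phosphatase PTPRZ1 and the proteoglycan syndecan 1, and both genes were measured well. Ptprz1 lay between 26.9 and 52.9 CPM in untreated and between 21.8 and 56.2 CPM in LPS libraries, with means of 40.8 ± 9.27 and 38.0 ± 13.8 CPM (log2 change -0.10 ± 0.23, adjusted p = 0.895 in edgeR). Sdc1 averaged 5.86 ± 0.935 and 7.68 ± 1.84 CPM, with overlapping groups (0.40 ± 0.17, edgeR adjusted p = 0.274). Per kilobase, Ptprz1 stood at 2.86 and Sdc1 at 1.54 CPM in untreated libraries, both above Csf1r at 0.0674.

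**Figure D2:**
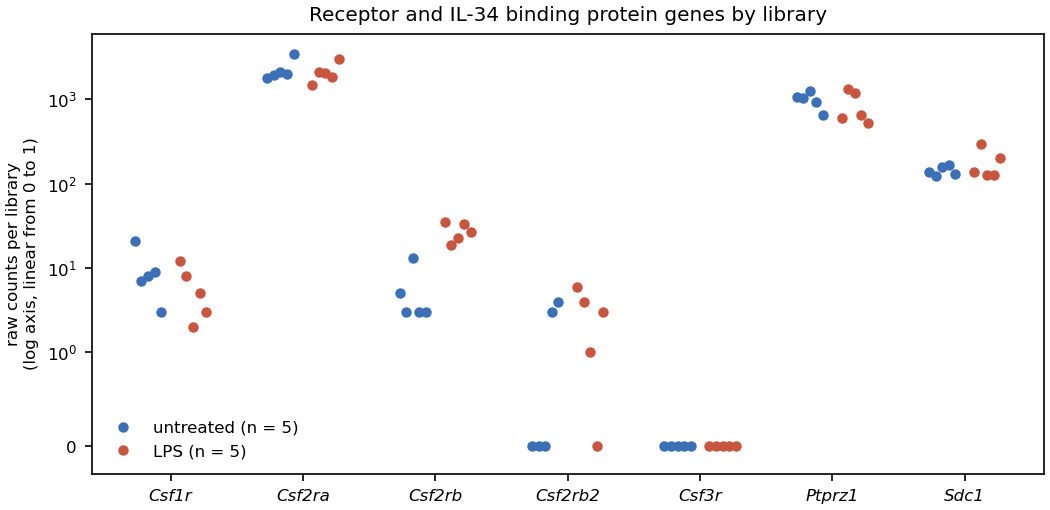
Raw counts per library (vertical axis, logarithmic above 1 and linear from 0 to 1) of the receptor and IL-34 binding protein genes in 5 untreated and 5 LPS libraries, 1 point per library. Csf2ra has at least 1500 counts in every library, Csf2rb is between 19 and 35 in LPS libraries against 3 to 13 in untreated ones, and Csf3r is at 0 throughout.

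Of 13 transcription factor genes known for induction of colony-stimulating factors, 5 were called higher and none lower, beside 2.84% and 0.928% of all tested genes. Their median log2 change was 0.54. Nfkbiz, which encodes an atypical IkB protein needed for a subset of NF-kB target genes, rose from 143 ± 12.6 to 279 ± 36.0 CPM (log2 change 0.96 ± 0.09, adjusted p = 4.63e-05 in edgeR). Cebpd rose by 1.31 on the log2 scale from 25.9 ± 5.48 CPM (adjusted p = 0.000175), and the genes of the non-canonical NF-kB subunits Nfkb2 (1.06, adjusted p = 0.00729) and Relb (1.28, adjusted p = 0.0128) rose with it. All 4 had no overlap between the groups, a pattern with LPS higher that 3.84% of all tested genes showed. They were named for the smallest adjusted p of the list, so this adds little to their calls. LPS 6 was the highest library for Nfkb2 and Relb, at 83.2 and 68.3 CPM. Cebpb, named after its value was seen, was called with overlapping groups (0.87, edgeR adjusted p = 0.0457) and lost its call in 9 of the 10 fits without 1 library. With the endothelial list as a covariate 1 of the 13 was called, and 2 with the share of ENSMUSG00000119584. Over all 15942 tested genes these fits called 115 and 165, against 601 without a covariate. With the endothelial list Relb and Nfkb2 had log2 changes of 0.56 and 0.52, and with the share 1.44 and 1.03.

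Of 9 factors that shorten or prolong the life of such transcripts, 2 were called higher and none lower (median log2 change 0.04), beside 2.84% and 0.928% of all tested genes. Zc3h12a encodes the endoribonuclease Regnase-1, which cleaves inflammatory transcripts. It was at 5.63, 6.11, 4.60, 5.42 and 4.64 CPM in untreated and at 41.6, 29.8, 20.8, 26.7 and 34.4 CPM in LPS libraries. The lowest LPS library was thus above every untreated one, a pattern that 3.84% of all tested genes showed. The log2 change was 2.54 ± 0.17 (adjusted p = 3.68e-06 in edgeR). Zfp36, whose product tristetraprolin binds the heptamer TATTTAT in its RNA form, rose from 305 ± 24.0 to 409 ± 51.2 CPM (0.42 ± 0.09, adjusted p = 0.0149), and was not called without untreated 3 (edgeR adjusted p = 0.0562). With either the endothelial list or the share of ENSMUSG00000119584 as a covariate, 1 of the 9 was called. Over all 15942 tested genes these fits called 115 and 165, and Zfp36 had log2 changes of 0.36 and 0.48 in them.

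CSF1 is made in part as a membrane protein that is released by the protease ADAM17. Of 4 genes of that step 1 rose, beside 2.84% of all tested genes. It was Rhbdf2, which encodes a partner that carries ADAM17 to the cell surface. Its mean rose from 7.49 ± 0.707 to 14.6 ± 4.43 CPM (log2 change 0.96 ± 0.17, adjusted p = 0.0052 in edgeR). With either of the same covariates in edgeR none of the 4 was called, while 115 and 165 of all 15942 tested genes were. Rhbdf2 had a log2 change of 0.69 ± 0.26 with the endothelial list (adjusted p = 0.43 in edgeR) and of 1.02 ± 0.28 with the share of ENSMUSG00000119584 (0.164), both with a wider error. The median of the list was 0.11.

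Genes that relay the signal of these receptors held 1 member called higher of 10, beside 2.84% of all tested genes. It was the kinase gene Pim1, a known target of STAT5 (10.1 ± 1.95 to 14.5 ± 1.33 CPM, log2 change 0.51 ± 0.13, adjusted p = 0.0439 in edgeR). That call was lost in 7 of the 10 fits without 1 library (adjusted p up to 0.101) and with libraries thinned to equal depth (0.0663). Among 7 other haematopoietic growth factor genes, Il3, Il5 and Epo had 0 counts in all libraries, Il7 (12 and 19 counts over the groups) and Kitl (52 and 25) were too low to test, 2 were tested, and neither passed in edgeR, DESeq2 or limma-voom, nor in edgeR at an unadjusted p of 0.05. They were Flt3l, the dendritic cell growth factor gene, at 12.3 ± 4.43 and 13.5 ± 4.58 CPM (0.14, edgeR adjusted p = 0.873), and the thrombopoietin gene Thpo at 1.63 ± 0.283 and 1.59 ± 0.953 CPM (-0.05, adjusted p = 0.968).

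**Figure D3:**
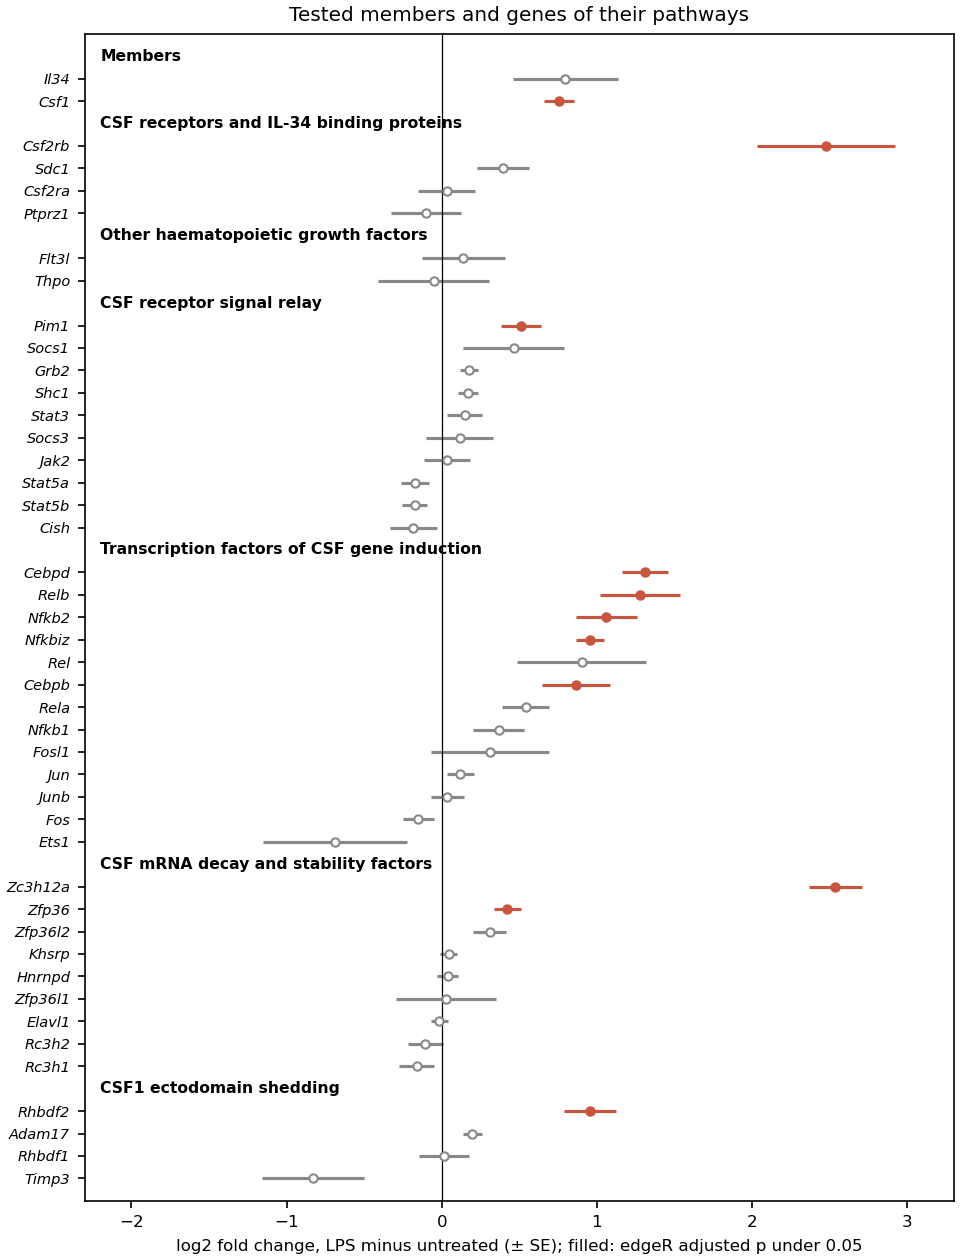
Log2 fold change of LPS against untreated (horizontal axis, bars ± SE) of the 2 tested members and of the tested genes of 6 pathway lists; filled points have an edgeR adjusted p under 0.05. All 11 filled points lie to the right of 0, with Zc3h12a at 2.54 and Csf2rb at 2.48 farthest out and Csf1 at 0.76.

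Over the 10 libraries the log2 CPM of Csf1 ran most closely with Vnn3, Gbp6, Stra6l, Hpse and H2-Q7, with Pearson's r of 0.97 for each, among 12002 genes compared. All 5 were called higher in LPS libraries, so that this likeness holds the difference between groups. After each group's mean was subtracted, the closest genes were Eny2 (r = 0.92), Lipo3 (0.90), Ddx24 (0.87), Actr10 (0.85) and Kif27 (0.83), none of them called. For Il34, with 5 to 17 counts per library, the closest were Afg3l1 (0.94), Zfp36l2 (0.93), Cacna1c (0.91), Plaa (0.90) and Map3k1 (0.90), and after subtraction Afg3l1 (0.93), Shld2 (0.92), Hs3st3b1 (0.92), Pibf1 (0.91) and Aqp4 (0.91). These are descriptions over 10 points that share library and depth.

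Other cell types that make or answer these factors left few transcripts, with exceptions. Of 14 macrophage markers Ptprc was at 0 in all libraries, and Adgre1, Cx3cr1 and Fcgr1 had 1 count each in all. The list summed to 45.7 to 69.4 CPM in untreated and 60.3 to 69.3 CPM in LPS libraries, with Cd68 (16.7 and 26.8 CPM) and C1qa (18.7 and 14.7 CPM) among its abundant members. The 11 markers of low level, set apart after their values were seen, summed to 2 to 25 counts per library. Of the list 3 were tested, and Cd68 was the 1 called higher (log2 change 0.68, edgeR adjusted p = 0.0141), beside 2.84% of all tested genes. Unlike C1qa, C1qb had 5 counts over the untreated and 1 over the LPS libraries, and C1qc had 2 and 3. Of 9 neutrophil markers 6 were at 0 in all libraries, Ly6g had 3 counts in 1 untreated library, and the list summed to at most 0.129 CPM in untreated and to between 0.215 and 1.32 CPM in LPS libraries, the ones with more Csf3. S100a9 gave nearly all of that, with 3 counts over the untreated and 72 over the LPS libraries, and S100a8 had 0 and 4; the part of such cells in the Csf3 counts was not tested. Lymphocyte markers summed to 1.19 to 3.64 CPM, mostly Cd79a, while Cd2 had 15 counts over the untreated and 3 over the LPS libraries.

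Endothelial and stromal cells are known sources of Csf1. Endothelial markers summed to 10.4 to 36.0 CPM in untreated and 9.17 to 12.9 CPM in LPS libraries, and 6 of the 7 could be tested, with a median log2 change of -2.38. Kdr was the 1 called lower (-3.12, edgeR adjusted p = 0.0473), beside 0.928% of all tested genes. Esam was the most abundant (10.3 and 8.51 CPM) and was not called (log2 change -0.27). In LPS libraries Csf1 was higher and the endothelial sum lower on average, though untreated 1 lay within the LPS range of these sums. Within the untreated group, untreated 1, with the lowest endothelial sum of its group at 10.4 CPM, had the lowest Csf1 of all libraries at 23.7 CPM. Untreated 4 had the highest endothelial sum, 36.0 CPM, and the highest Csf1 of that group, 29.4 CPM. Untreated 2, with a sum of 27.3 CPM, had Csf1 at 24.2 CPM, above that of untreated 1 only. Within the LPS group, LPS 6 had the lowest endothelial sum, 9.17 CPM, and the highest Csf1, while LPS 7 had the highest sum, 12.9 CPM, with Csf1 at 38.5 CPM. The mesenchymal list, led by Col1a1 and Col3a1, was highest among untreated libraries in untreated 4 (94.0 CPM) and lowest in untreated 5 (5.87 CPM). Csf1 stood at 29.4 and 26.0 CPM in these. Among LPS libraries this list was highest in LPS 8 (28.1 CPM) and lowest in LPS 6 (4.00 CPM), with Csf1 at 38.3 and 53.0 CPM. The relation of Csf1 to these sums within the groups was not tested. With the endothelial list as a covariate the Csf1 call held (0.81 ± 0.16, edgeR adjusted p = 0.0458).

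Ductal markers summed to 493 to 623 CPM in untreated and 569 to 719 CPM in LPS libraries. Of the 7, 6 were tested and 2 were called higher, beside 2.84% of all tested genes. They were Spp1 (46.3 and 91.0 CPM) and Muc1, while Krt7 was not called (423 and 472 CPM). Acinar markers, led by Ctrb1 and Prss2, spanned 221 to 426 and 128 to 580 CPM. The markers of other hormone cells, led by Gcg and Sst, spanned 11514 to 23866 and 9262 to 18706 CPM. Of these 6 hormone cell markers 1 was called lower, Ppy, beside 0.928% of all tested genes. Muc1 and Ppy were named after their values were seen. In LPS 6 to 10 the acinar sums were 490, 188, 348, 580 and 128 CPM. Csf1 stood at 53.0, 38.5, 38.3, 44.0 and 47.5 CPM in these libraries, and its relation to the acinar sums was not tested. The part of ductal and other hormone cells in the values of Csf1, Il34 and Csf3 was not tested. With the other hormone cell list as a covariate, an unplanned setting, Csf1 had a log2 change of 0.68 (edgeR adjusted p = 0.00155). That list itself averaged 17593 ± 4544 CPM in untreated and 14010 ± 3378 CPM in LPS libraries.

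**Figure D4:**
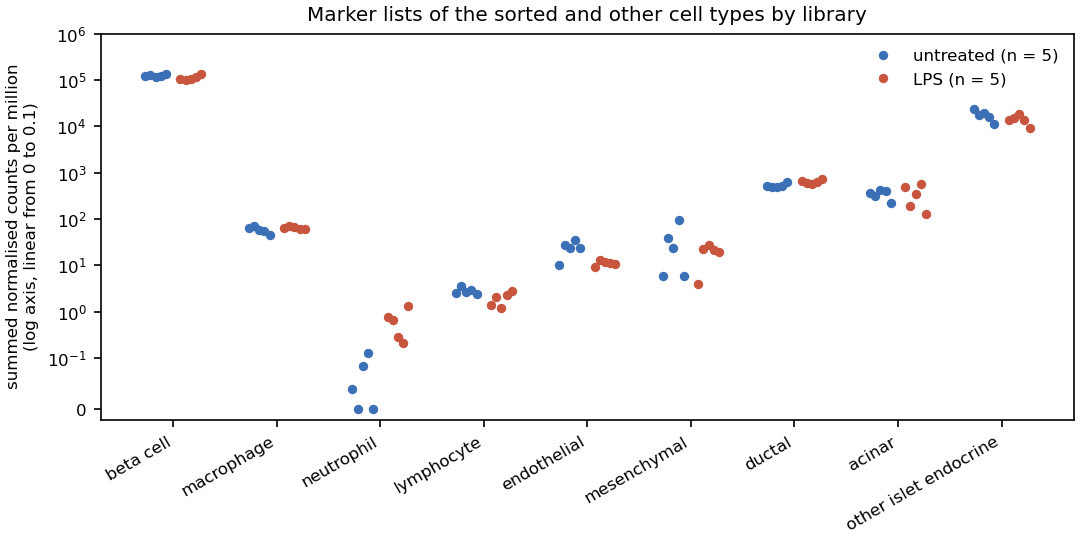
Summed normalised CPM of 9 marker lists (vertical axis, logarithmic above 0.1 and linear below) in 5 untreated and 5 LPS libraries, 1 point per library. Beta cell markers are highest, at 100813 CPM or more, the neutrophil list is below 1.4 CPM, and the endothelial list is at most 12.9 CPM in LPS libraries against up to 36.0 CPM in untreated ones.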

How the data were processed

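The values are raw read counts per Ensembl gene, 1 table per library as deposited by the authors. Per the submitters' processing notes, STAR, HTSeq, SAMtools, Trimmomatic, FastQC and DESeq2 were used with build GRCm39. The sources used here give no version, annotation release or strand setting. Closing totals that name no gene were left out (reads outside genes, 8.84 to 12.9% of all). Of 56748 identifiers, 52073 matched a symbol. Every pair of libraries of a group differed by more than sampling noise (chi-square per gene at least 6.13).

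Counts were analysed in R 4.3.3 with edgeR 4.0.16 (TMM, quasi-likelihood F test without covariates, low counts removed by filterByExpr at a count of 10 and a total of 15, Benjamini-Hochberg over 15942 genes, called under 0.05), after tests on simulated data. Csf2 and Csf3 failed the filter and were compared on CPM by exact permutation, two-sided, and the Csf1 to Il34 ratio (0.5 added to each count) likewise. DESeq2 1.42.0 and limma 3.58.1 were alternatives. CPM per kilobase used exon lengths of GENCODE M21, and correlations used log2 CPM (prior count 2) of genes with at least 1 CPM. Figures used matplotlib 3.10.9.

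The members and lists were chosen with earlier results of these data known. Genes named were the members, all receptor genes, up to 4 called genes of each other pathway list (else its 2 most abundant), the 2 most abundant of each marker list, and the 5 closest by correlation; further names are marked, or are list members named for counts at or near 0 or for their share of a marker sum. One gene that this rule picks is not reported here.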

Additional observations from a re-analysis of the deposited data

Results flagged for a closer look

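In 20 groups of 5 values checked for the members and receptors, 2 held a library far from the other 4, where chance gives about 1 in 20. Csf2ra in untreated 5 stood at 139.9 CPM against 69.2 to 88.0 in the other untreated libraries, a gap of 0.735 of the group's range. Csf2rb in untreated 3 stood at 0.549 CPM against 0.121 to 0.194, a gap of 0.830 of the range that rests on 13 counts against 3 to 5.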

How the results depend on the processing

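No paired analysis was possible because the titles number the libraries 1 to 5 and 6 to 10, so no number is shared. The 601 calls over all genes became 941 with DESeq2, 994 with limma-voom and sample quality weights, 115 with the endothelial list and 165 with the share of ENSMUSG00000119584 as a covariate (both covariates added after the data were seen), and 401 to 624 without 1 library. Csf1 had log2 fold changes of 0.68 to 0.81 over 21 alternatives and lost its call in 1 (0.78, adjusted p = 0.0509, with the share of ENSMUSG00000119584). Il34 had 0.45 to 1.05, not called in any of the 19 alternatives that tested it; the filter at 1 CPM and the thinning to equal depth removed it. Csf3 had a log2 ratio of 3.87 to 5.11 over 13 alternatives with an exact test, whose p was the smallest the design allows in each (0.00794, or 0.0159 for 4 against 5) and so says nothing of stability. The Csf1 to Il34 ratio, near 0, changed sign with thinning (0.0368) and ranged from -0.26 to 0.10 without 1 library.

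The receptor list had 0 called genes with the filter at 1 CPM in 5 libraries, which removes Csf2rb, and 0 with either covariate. The signal relay list had 0 with quality weights, with thinning and with either covariate, and 0 to 1 without 1 library. The decay factors had 1 with either covariate and 1 to 2 without 1 library. The transcription factors had 1 with the endothelial list and 2 with the share of ENSMUSG00000119584, and the shedding list 0 with each. Signs turned for values near 0 that were not called: Csf2ra (-0.16 with the other endocrine list, -0.16 with the share of ENSMUSG00000119584, -0.0884 to 0.230 without 1 library), Ptprz1 (0.00864 with the endothelial list, 0.195 with the endocrine list, -0.29 to 0.0472), Flt3l (-0.14 and -0.0586 with the endocrine list and the share, -0.0605 to 0.32) and Thpo (0.0514 with the endothelial list, -0.42 to 0.14). Not every fit of these genes stayed near 0. Flt3l had 0.81 with the endothelial list (edgeR adjusted p = 0.613), and Thpo had -0.96 with the share of ENSMUSG00000119584 (edgeR adjusted p = 0.666). The cause of these shifts was not tested. Limits of depth fall on Csf2, Csf3, Il34, Csf1r and Csf2rb, with under 40 counts per library.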
